A study of Mus musculus with 21 samples.

Results

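The genes described here encode chromatin modifying enzymes and their partners. They were the rows of the panel whose symbol began with Hdac, Kdm, Kat2, Kat6, Kmt2, Setd, Suv39h, Suv420h, Smarc, Dnmt, Mbd, Tet, Brd, Ezh, Ncor, Arid or Sirt, or was Ep300, Crebbp, Eed, Suz12, Jarid2, Dot1l, Ash2l, Bmi1, Hat1 or Sin3a, with Kdm5c, Kdm5d and Kdm6a left out. The rule found 48 of 757 probes, and all 48 had values above the low-value filter, which left 740 probes for testing. RNA came from the right hemisphere, ipsilateral to the injury, of 21 male C57BL6J mice and was counted on the nCounter Neuroinflammation panel for mouse (NanoString), in which a color-coded probe hybridizes to each transcript. There were 7 groups of 3 samples, each from a separate mouse. Sham mice received anesthesia and a scalp incision only, were listed under PBS vehicle, and were 12, 13 and 16 weeks old. Injured mice had a controlled cortical impact to the exposed right parieto-temporal cortex (traumatic brain injury, TBI) and were given either PBS or CR2-Crry at 16 mg/kg by tail vein 1 h later. They were sampled on day 3 at 12 weeks of age, day 7 at 13 weeks or day 28 at 16 weeks, and both day 28 groups had 3 further intraperitoneal doses on days 7, 14 and 21. In CR2-Crry the mouse complement inhibitor Crry is fused to part of complement receptor 2, through which it is carried to tissue bearing activated C3. The 3 sham mice served every day, so age and time since injury cannot be told apart in changes from sham.

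Histone acetyltransferases such as Crebbp, Ep300, Kat2a and Kat2b open chromatin by acetylating histone tails, bromodomain proteins such as Brd2 read that mark, and deacetylases such as Hdac1 remove it, often on the Sin3a scaffold. Polycomb complex 2, with Ezh1 or Ezh2 as catalytic subunit and Eed and Suz12 as partners, methylates histone H3 to keep genes silent, while complexes built on Ash2l with Setd1a, Setd1b or Kmt2c place an activating methyl mark and the Kdm enzymes take methyl groups off. Dnmt enzymes methylate DNA, Mbd2 reads the methylated base, and SWI/SNF complexes with Smarca4, Smarcd1 and Arid1a move nucleosomes using ATP. In the brain these enzymes are expressed by neurons and glia alike and are studied in learning, glial differentiation and the inflammatory response of microglia.

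The deposited values were normalized counts, scaled by the authors to housekeeping genes, and the raw totals recovered from their steps were 750585 to 1023041 per sample. The median probe of a sample averaged 247 normalized counts in sham, 382, 413 and 311 in PBS TBI on days 3, 7 and 28, and 398, 367 and 317 in CR2-Crry TBI. Centring every sample on its median log2 value therefore lowered each difference from sham by 0.60, 0.73 and 0.34 on the log2 scale for PBS TBI and by 0.65, 0.56 and 0.33 for CR2-Crry TBI, for all probes alike. Values below are on the authors' scaling, and changes from sham are also given with median-centred samples. Since centring lowers every such difference, a gene lower than sham on the authors' scaling stays lower after it, which adds no support to its direction. A gene was called up- or downregulated at an adjusted p under 0.05 (limma, Benjamini-Hochberg over the 740 tested probes). Cell type markers were counted in the same way. The summed level of 11 neuronal markers was 66157 to 67372 in sham, 53454 to 59365 in PBS TBI and 52585 to 63906 in CR2-Crry TBI, with 0 upregulated and 7, 6 and 5 downregulated on days 3, 7 and 28 of PBS TBI (11, 11 and 10 downregulated with median-centred samples). For 9 microglial markers the sums were 4158 to 4472, 7985 to 18818 and 7360.1 to 14482, with 9 of 9 upregulated on each day of PBS TBI (8, 9 and 7 median-centred). For 7 genes of cycling cells they were 1609 to 1642, 1838 to 3692 and 1820.2 to 4153, with 7, 6 and 3 upregulated (7, 2 and 0 median-centred, with 0, 2 and 1 downregulated). Astrocyte markers were upregulated in 5, 5 and 4 of 5 (2, 1 and 2 median-centred, with 1, 2 and 1 downregulated), and monocyte and macrophage markers in 4, 4 and 3 of 4 (3, 3 and 2). As with the astrocyte and cycling-cell lists, the calls of the other lists depended on the scaling. Oligodendrocyte markers were upregulated in 3, 5 and 3 of 6, but 0 were with median-centred samples and 3, 5 and 3 were then downregulated. Endothelial markers were upregulated in 4, 2 and 1 of 6 with 1 downregulated on day 3, against 1, 0 and 0 upregulated and 2, 4 and 2 downregulated after centring. T and NK cell markers were upregulated in 0, 0 and 1 of 7 with 1 downregulated on day 3, against 0 upregulated and 4, 3 and 0 downregulated. In CR2-Crry TBI the neuronal markers were downregulated in 7, 6 and 7 of 11, the microglial markers upregulated in 9 of 9 on each day and the cycling genes in 7, 5 and 2 of 7 (after centring 11, 11 and 10, then 8, 9 and 6, then 7, 2 and 1, with 0, 2 and 2 cycling genes downregulated). No marker was at 0 in any group. The neuronal and microglial lists move with the changes from sham described below on every day, the part of any list in them was not tested, and in a whole hemisphere fewer cells of a type and less RNA per cell cannot be told apart.

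The first question was how these genes changed after injury with PBS. On day 3, 8 of 48 were upregulated and 12 downregulated, beside 51.6% and 13.2% of all 740 tested genes. On day 7 the counts were 11 and 4, beside 57.3% and 9.46%, and on day 28 they were 8 and 6, beside 44.5% and 8.11%. The upregulated share of the 48 genes was thus 16.7%, 22.9% and 16.7% on the 3 days, below the share among all tested genes, and the downregulated share was 25%, 8.33% and 12.5%. Their median log2 change was −0.018, 0.037 and −0.00045, against 0.30, 0.36 and 0.21 over all tested genes. Changes were small on the authors' scaling. A difference of over 1.5-fold in either direction was found for 1 of 48 on each day, beside 38.1%, 41.8% and 28.8% of all genes. After centring it was found for 30, 36 and 1 of 48 on days 3, 7 and 28, beside 52.3%, 57.3% and 18.5%. With median-centred samples 0 of 48 were upregulated on any day and 46, 45 and 41 were downregulated, beside 26.5%, 25.9% and 21.2% of all genes upregulated and 52.3%, 54.5% and 38.0% downregulated. Centring shifts all genes alike, so it leaves the gap between the medians of the 48 genes and of all genes as it was. On day 28, leaving out PBS replicate 3 reduced the 14 calls to 8 and leaving out sham replicate 2 reduced them to 9. Of the 48 genes, 28 were called on at least 1 of the 3 days and 20 on none, on the authors' scaling. Of all 740 tested genes 480, 494 and 389 were called on days 3, 7 and 28, and those called on at least 1 day were not counted.

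**Figure D1:**
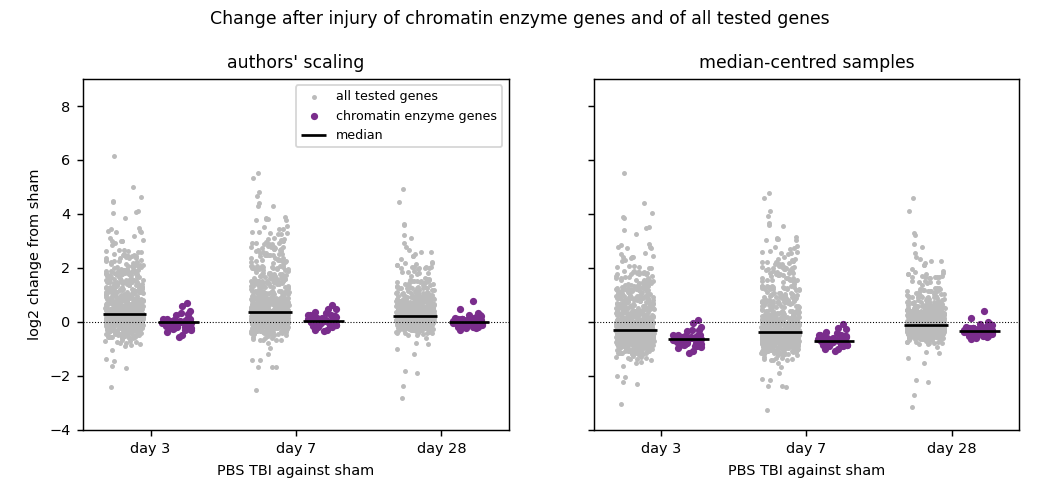
Log2 change from sham in PBS TBI on days 3, 7 and 28 for all 740 tested genes (grey) and the 48 chromatin enzyme genes (purple), on the authors' scaling and with median-centred samples, with black lines at the medians. The 48 genes lie in a narrow band with medians of −0.018, 0.037 and −0.00045 on the authors' scaling, and after centring all lie below 0 except Hdac1 on day 3 and Dnmt3b and Kdm4d on day 28, with medians of −0.62, −0.69 and −0.34.

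The counts by family were read beside the 51.6%, 57.3% and 44.5% of all tested genes upregulated and the 13.2%, 9.46% and 8.11% downregulated on days 3, 7 and 28. The SWI/SNF and related remodellers had 0 of 4 genes upregulated on any day and 3, 1 and 1 downregulated. The histone methyltransferases outside Polycomb and the H3K9 enzymes had 0, 1 and 1 of 7 upregulated and 4, 1 and 2 downregulated. Genes of DNA methylation and its readers had 2, 2 and 3 of 5 upregulated, and 1 downregulated on day 28. Among 5 acetyltransferases 2, 1 and 1 were upregulated and 2, 0 and 0 downregulated, and among 5 deacetylases 1 was upregulated and 1 downregulated on each day. Demethylases had 1, 3 and 1 of 11 upregulated and 2, 1 and 1 downregulated. Polycomb genes had 1 of 6 upregulated on each day and 0 downregulated, and neither of the 2 H3K9 methyltransferases Setdb1 and Suv39h2 was called on any day. With median-centred samples no family had an upregulated gene. Those downregulated on days 3, 7 and 28 were 4 of 4 remodellers and 7 of 7 methyltransferases on each day, 5, 4 and 4 of 5 DNA methylation genes, 5, 5 and 4 of 5 acetyltransferases, 4 of 5 deacetylases on each day, 10, 10 and 8 of 11 demethylases, 6, 6 and 5 of 6 Polycomb genes and both H3K9 methyltransferases on each day.

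**Figure D2:**
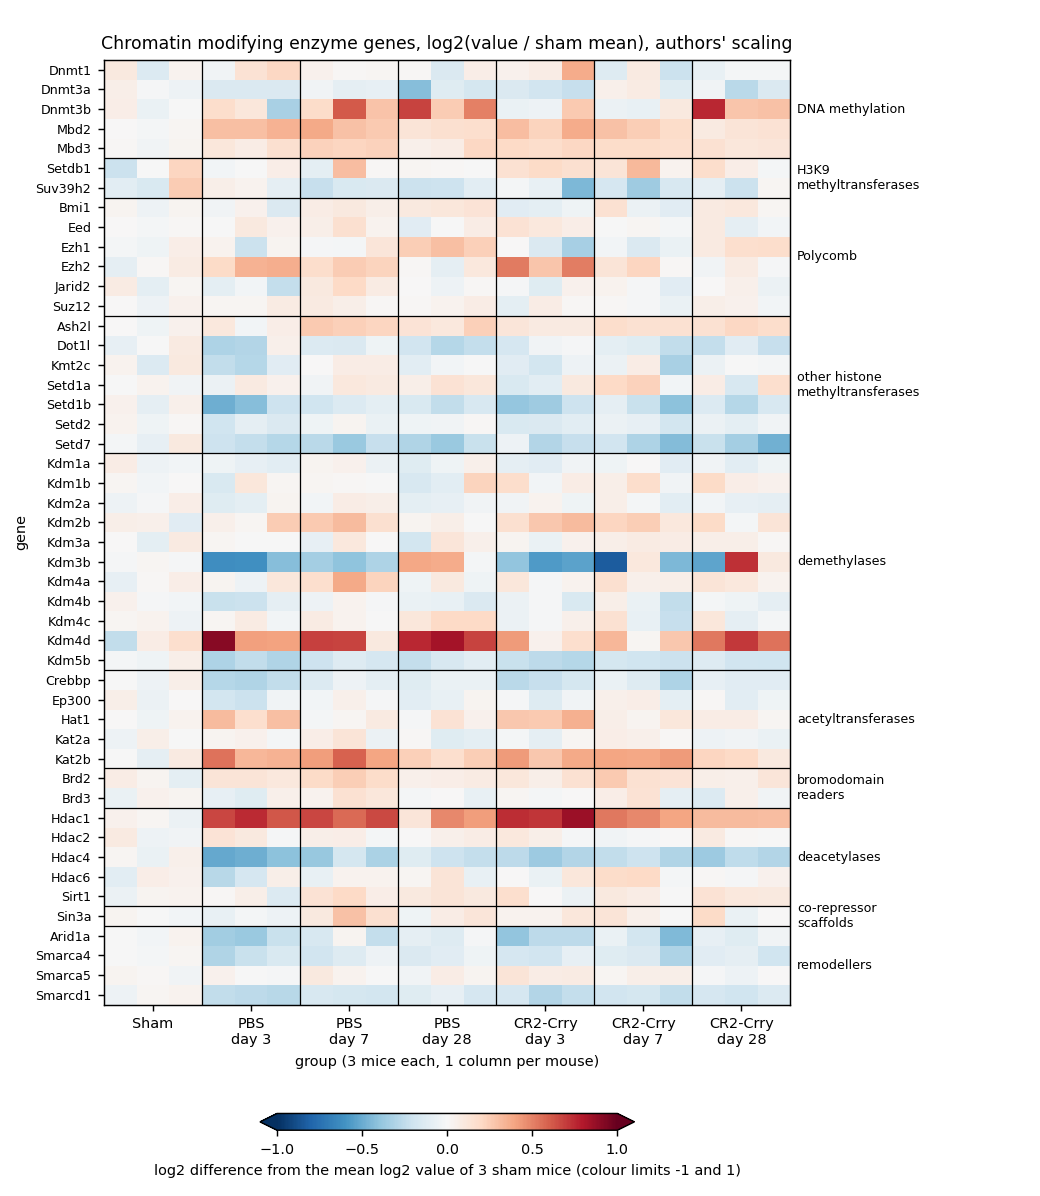
Heat map of the 48 genes (rows, by family) in the 21 mice (columns, by group), coloured by the log2 difference from the mean of the 3 sham mice on the authors' scaling. Hdac1 and Kat2b are red and Hdac4, Kdm5b, Setd7 and Smarcd1 blue in the injured groups, and with median-centred samples the mean differences of all 6 are below 0 on days 3, 7 and 28 of PBS TBI except that of Hdac1 on day 3.

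Deacetylase genes moved in both directions. Hdac1 was 1.60, 1.55 and 1.27 times its sham level on days 3, 7 and 28 and Hdac4 0.722, 0.817 and 0.876 times, on the authors' scaling, while after centring Hdac1 was not called on any day and Hdac4 was downregulated on each. For Hdac1, a class I deacetylase that works in the Sin3, NuRD and CoREST co-repressor complexes, the sham mice gave 291, 286 and 271 normalized counts, and the PBS mice gave 449.6, 475 and 435 on day 3, 449, 419 and 447 on day 7 and 307, 393 and 378 on day 28. Hdac1 values of 9 of 9 PBS mice lay above the highest sham value, with replicate 1 on day 28 the lowest of the 9. Hdac1 was upregulated by a log2 difference (SE 0.078) of 0.68 (adjusted p = 2.49e-07) on day 3, 0.63 (adjusted p = 6.03e-07) on day 7 and 0.34 (adjusted p = 0.00131) on day 28, and with median-centred samples the 3 differences were 0.079, −0.096 and −0.0011. Normalized counts of Hdac4, a class IIa deacetylase that shuttles between nucleus and cytoplasm and represses MEF2 target genes, were 481, 452 and 491 in sham, 332, 338 and 357 on day 3 of PBS TBI, 365, 420.1 and 379.9 on day 7 and 435, 411 and 402 on day 28. Hdac4 values of 9 of 9 PBS mice lay below the lowest sham value. Hdac4 was downregulated by a log2 difference (SE 0.063) of −0.47 (adjusted p = 2.1e-06) on day 3, −0.29 (adjusted p = 0.000463) on day 7 and −0.19 (adjusted p = 0.0169) on day 28, and with median-centred samples the 3 differences were −1.07, −1.02 and −0.53. A call for Hdac4 was lost on day 28 without sham replicate 1, sham replicate 3 or PBS replicate 3 (adjusted p = 0.0531 to 0.0662). The other 3 deacetylase genes, Hdac2, Hdac6 and Sirt1, were not called on any day on the authors' scaling, with log2 differences from −0.13 to 0.14. After centring all 3 were downregulated on each day. Sin3a, the scaffold on which Hdac1 and Hdac2 assemble, had 784, 766 and 753 normalized counts in sham mice, and after TBI with PBS it had 728, 758 and 741 on day 3, 822, 939.7 and 856 on day 7 and 746, 807 and 836 on day 28. Sin3a values of PBS mice lay above the highest sham value in 0, 3 and 2 of 3 mice on days 3, 7 and 28. Sin3a was upregulated by a log2 difference (SE 0.065) of 0.18 (adjusted p = 0.0188) on day 7, while the difference was −0.048 (adjusted p = 0.54) on day 3 and 0.052 (adjusted p = 0.53) on day 28, and with median-centred samples the 3 differences were −0.65, −0.55 and −0.29. The call for Sin3a was lost on day 7 without sham replicate 3 or PBS replicate 2 (adjusted p = 0.0561 to 0.117).

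Acetyltransferases moved in both directions on the authors' scaling, on which Kat2b was 1.32 times and Crebbp 0.824 times its sham level on day 3, and both lay below sham after centring. For Kat2b, also called PCAF, an acetyltransferase of histone H3 and of transcription factors, the sham mice gave 551, 520.1 and 590.2 normalized counts, and the PBS mice gave 806, 695 and 702 on day 3, 737, 830.2 and 726 on day 7 and 651, 622 and 657 on day 28. Kat2b values of 9 of 9 PBS mice lay above the highest sham value. Kat2b was upregulated by a log2 difference (SE 0.068) of 0.41 (adjusted p = 3.28e-05) on day 3, 0.46 (adjusted p = 6.22e-06) on day 7 and 0.22 (adjusted p = 0.0123) on day 28, and with median-centred samples the 3 differences were −0.20, −0.26 and −0.12. A call for Kat2b was lost on day 28 without sham replicate 2 (adjusted p = 0.0673). Normalized counts of Hat1, the enzyme that acetylates newly made histone H4, were 799.5, 774 and 817 in sham, 993, 897 and 981 on day 3 of PBS TBI, 785, 809 and 849 on day 7 and 791, 879.9 and 821 on day 28. Hat1 values of PBS mice lay above the highest sham value in 3, 1 and 2 of 3 mice on days 3, 7 and 28. Hat1 was upregulated by a log2 difference (SE 0.052) of 0.26 (adjusted p = 0.000183) on day 3, while the difference was 0.031 (adjusted p = 0.617) on day 7 and 0.059 (adjusted p = 0.356) on day 28, and with median-centred samples the 3 differences were −0.34, −0.70 and −0.28. Crebbp, the CREB-binding coactivator and acetyltransferase, had 3257, 3164 and 3402 normalized counts in sham mice, and after TBI with PBS it had 2681, 2649.9 and 2764 on day 3, 2983, 3152 and 3053 on day 7 and 3002, 3126 and 3123 on day 28. Crebbp values of 9 of 9 PBS mice lay below the lowest sham value. Crebbp was downregulated by a log2 difference (SE 0.050) of −0.28 (adjusted p = 6.09e-05) on day 3, while the difference was −0.096 (adjusted p = 0.0944) on day 7 and −0.086 (adjusted p = 0.157) on day 28, and with median-centred samples the 3 differences were −0.88, −0.83 and −0.43. For Brd2, a BET protein that binds acetylated histones, the sham mice gave 2151, 2084 and 1915 normalized counts, and the PBS mice gave 2243, 2239 and 2206 on day 3, 2333, 2434 and 2329.6 on day 7 and 2123, 2142 and 2164 on day 28. Brd2 values of PBS mice lay above the highest sham value in 3, 3 and 1 of 3 mice on days 3, 7 and 28. Brd2 was upregulated by a log2 difference (SE 0.045) of 0.12 (adjusted p = 0.0214) on day 3 and 0.21 (adjusted p = 0.000406) on day 7, while the difference was 0.066 (adjusted p = 0.228) on day 28, and with median-centred samples the 3 differences were −0.48, −0.52 and −0.27. A call for Brd2 was lost on day 3 without sham replicate 3, PBS replicate 1 or PBS replicate 2 (adjusted p = 0.0519 to 0.161). Ep300, the close relative of Crebbp, was downregulated on day 3 by a log2 difference of −0.15 (−0.75 with median-centred samples, adjusted p = 0.0339), a call lost on day 3 without sham replicate 1, sham replicate 3, PBS replicate 1 or PBS replicate 2 (adjusted p = 0.0682 to 0.145). Kat2a and Brd3 were not called on any day on the authors' scaling. After centring both bromodomain genes were downregulated on each day, and 5, 5 and 4 of 5 acetyltransferases on days 3, 7 and 28.

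Among the genes of DNA methylation Mbd2 and Mbd3 were upregulated on the authors' scaling and lower than sham after centring. Normalized counts of Mbd2, a reader of methylated DNA that belongs to NuRD, were 2263, 2225 and 2295 in sham, 2778, 2782 and 2873 on day 3 of PBS TBI, 2948, 2776 and 2703 on day 7 and 2469, 2525 and 2537 on day 28. Mbd2 values of 9 of 9 PBS mice lay above the highest sham value. Mbd2 was upregulated by a log2 difference (SE 0.042) of 0.31 (adjusted p = 2.03e-06) on day 3, 0.31 (adjusted p = 2.07e-06) on day 7 and 0.15 (adjusted p = 0.00577) on day 28, and with median-centred samples the 3 differences were −0.29, −0.42 and −0.19. Mbd3, its NuRD relative, which in mammals does not select methylated DNA, had 1463, 1419 and 1480.0 normalized counts in sham mice, and after TBI with PBS it had 1572, 1532 and 1621 on day 3, 1701, 1685 and 1706 on day 7 and 1506, 1530.4 and 1681 on day 28. Mbd3 values of 9 of 9 PBS mice lay above the highest sham value. Mbd3 was upregulated by a log2 difference (SE 0.040) of 0.12 (adjusted p = 0.0162) on day 3, 0.22 (adjusted p = 6e-05) on day 7 and 0.11 (adjusted p = 0.0248) on day 28, and with median-centred samples the 3 differences were −0.49, −0.51 and −0.23. A call for Mbd3 was lost on day 3 without sham replicate 2 or PBS replicate 3 (adjusted p = 0.0687 to 0.0718) and on day 28 without sham replicate 2 or PBS replicate 3 (adjusted p = 0.0949 to 0.18). For Dnmt3a, a de novo DNA methyltransferase, the sham mice gave 428, 407 and 397 normalized counts, and the PBS mice gave 372, 372 and 372 on day 3, 400.2, 386 and 388 on day 7 and 306, 377 and 364 on day 28. Dnmt3a values of PBS mice lay below the lowest sham value in 3, 2 and 3 of 3 mice on days 3, 7 and 28, with replicate 1 on day 28 the lowest. Dnmt3a was downregulated by a log2 difference (SE 0.078) of −0.24 (adjusted p = 0.0159) on day 28, while the difference was −0.14 (adjusted p = 0.121) on day 3 and −0.070 (adjusted p = 0.451) on day 7, and with median-centred samples the 3 differences were −0.74, −0.80 and −0.58. The call for Dnmt3a was lost on day 28 without sham replicate 1 or PBS replicate 1 (adjusted p = 0.0658 to 0.117). Normalized counts of Dnmt3b, the second de novo enzyme, at a level near the filter, were 22.0, 20.1 and 20.9 in sham, 23.7, 22.7 and 16.7 on day 3 of PBS TBI, 23.8, 32.1 and 25.5 on day 7 and 33.5, 25.1 and 29.7 on day 28. Dnmt3b values of PBS mice lay above the highest sham value in 2, 3 and 3 of 3 mice on days 3, 7 and 28. Dnmt3b was upregulated by a log2 difference (SE 0.19) of 0.48 (adjusted p = 0.0421) on day 28, while the difference was −0.015 (adjusted p = 0.953) on day 3 and 0.36 (adjusted p = 0.105) on day 7, and with median-centred samples the 3 differences were −0.62, −0.37 and 0.14. The call for Dnmt3b was lost on day 28 without sham replicate 1, sham replicate 2, sham replicate 3, PBS replicate 1 or PBS replicate 3 (adjusted p = 0.0658 to 0.15). Dnmt1, the maintenance methyltransferase, had 286.5 to 430.1 normalized counts over the 21 mice and was not called on any day on the authors' scaling. After centring 5, 4 and 4 of 5 DNA methylation genes were downregulated on days 3, 7 and 28, Dnmt1 among those of day 3.

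**Figure D3:**
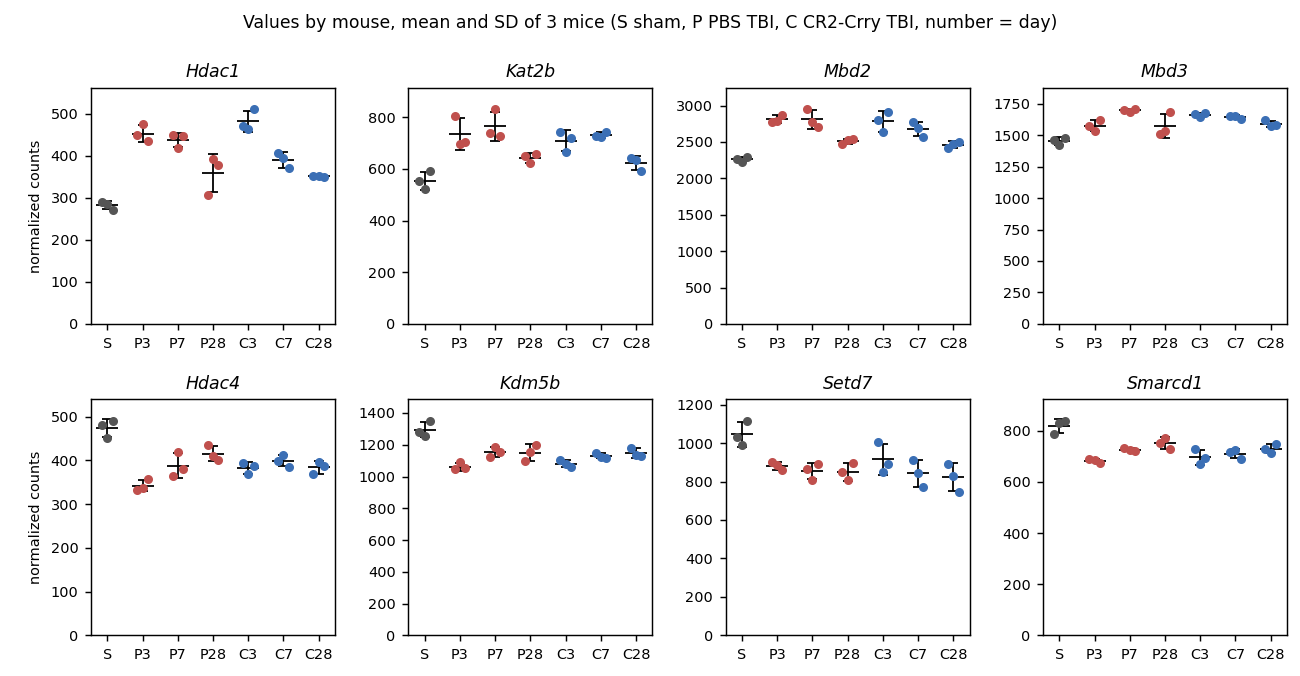
Normalized counts of Hdac1, Kat2b, Mbd2, Mbd3, Hdac4, Kdm5b, Setd7 and Smarcd1 in each mouse (points), with the mean and SD of 3 mice, on axes that start at 0 and the authors' scaling. The first 4 genes sit above sham and the last 4 below it in PBS TBI, and with median-centred samples all 8 have differences below 0 except Hdac1 on day 3.

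Both catalytic subunits of Polycomb complex 2 were called upregulated on the authors' scaling, on different days. After centring Ezh2 was downregulated on each day and Ezh1, called on day 28, was not called on that day. Ezh2, the catalytic subunit of Polycomb complex 2 in dividing cells, had 385, 414 and 434 normalized counts in sham mice, and after TBI with PBS it had 469, 524 and 528 on day 3, 464, 489.8 and 479 on day 7 and 413, 386 and 442 on day 28. Ezh2 values of PBS mice lay above the highest sham value in 3, 3 and 1 of 3 mice on days 3, 7 and 28. Ezh2 was upregulated by a log2 difference (SE 0.078) of 0.30 (adjusted p = 0.00211) on day 3 and 0.22 (adjusted p = 0.0192) on day 7, while the difference was 0.0080 (adjusted p = 0.938) on day 28, and with median-centred samples the 3 differences were −0.30, −0.51 and −0.33. A call for Ezh2 was lost on day 7 without sham replicate 1 or PBS replicate 2 (adjusted p = 0.061 to 0.0915). For Ezh1, its relative in resting cells, the sham mice gave 288, 283 and 306 normalized counts, and the PBS mice gave 299, 252 and 298 on day 3, 289.6, 289 and 318 on day 7 and 346, 359 and 345 on day 28. Ezh1 values of PBS mice lay above the highest sham value in 0, 1 and 3 of 3 mice on days 3, 7 and 28. Ezh1 was upregulated by a log2 difference (SE 0.085) of 0.26 (adjusted p = 0.0152) on day 28, while the difference was −0.051 (adjusted p = 0.615) on day 3 and 0.029 (adjusted p = 0.781) on day 7, and with median-centred samples the 3 differences were −0.65, −0.70 and −0.080. The call for Ezh1 was lost on day 28 without sham replicate 2 or PBS replicate 2 (adjusted p = 0.0501 to 0.0535). Bmi1 of Polycomb complex 1, Eed, Suz12 and the complex partner Jarid2 were not called on any day on the authors' scaling, with log2 differences from −0.12 to 0.13. After centring these genes were downregulated on days 3, 7 and 28. The 7 cycling-cell markers, listed above, were upregulated in 7, 6 and 3 of 7 on the same days.

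Histone methyltransferases outside Polycomb were downregulated for 4 of 7 genes on day 3 on the authors' scaling and for 7 of 7 on each day after centring. Normalized counts of Setd7, a lysine methyltransferase of histone H3 and many other proteins, were 1031, 989 and 1115 in sham, 902, 884 and 858 on day 3 of PBS TBI, 865, 807 and 889 on day 7 and 848, 806 and 896 on day 28. Setd7 values of 9 of 9 PBS mice lay below the lowest sham value. Setd7 was downregulated by a log2 difference (SE 0.077) of −0.24 (adjusted p = 0.00926) on day 3, −0.29 (adjusted p = 0.00256) on day 7 and −0.30 (adjusted p = 0.00347) on day 28, and with median-centred samples the 3 differences were −0.85, −1.02 and −0.64. A call for Setd7 was lost on day 3 without sham replicate 3 (adjusted p = 0.0519). Setd1b, a catalytic subunit of the COMPASS complexes that methylate histone H3 at active promoters, had 923, 843 and 928 normalized counts in sham mice, and after TBI with PBS it had 639, 668 and 777 on day 3, 783, 816 and 839.5 on day 7 and 805, 758 and 802 on day 28. Setd1b values of 9 of 9 PBS mice lay below the lowest sham value. Setd1b was downregulated by a log2 difference (SE 0.081) of −0.37 (adjusted p = 0.000448) on day 3, while the difference was −0.14 (adjusted p = 0.126) on day 7 and −0.19 (adjusted p = 0.059) on day 28, and with median-centred samples the 3 differences were −0.98, −0.87 and −0.53. For Ash2l, a core subunit of all COMPASS complexes, the sham mice gave 623, 602 and 639 normalized counts, and the PBS mice gave 667, 609 and 649.9 on day 3, 746, 734 and 719 on day 7 and 682, 668 and 731 on day 28. Ash2l values of PBS mice lay above the highest sham value in 2, 3 and 3 of 3 mice on days 3, 7 and 28. Ash2l was upregulated by a log2 difference (SE 0.047) of 0.24 (adjusted p = 0.000168) on day 7 and 0.16 (adjusted p = 0.00859) on day 28, while the difference was 0.046 (adjusted p = 0.402) on day 3, and with median-centred samples the 3 differences were −0.56, −0.49 and −0.18. A call for Ash2l was lost on day 28 without PBS replicate 3 (adjusted p = 0.0568). Normalized counts of Dot1l, which methylates histone H3 on transcribed genes, were 337, 356 and 380.1 in sham, 288, 291 and 369 on day 3 of PBS TBI, 326, 324 and 347 on day 7 and 312, 294 and 303 on day 28. Dot1l values of PBS mice lay below the lowest sham value in 2, 2 and 3 of 3 mice on days 3, 7 and 28. Dot1l was downregulated by a log2 difference (SE 0.086) of −0.24 (adjusted p = 0.0273) on day 28, while the difference was −0.19 (adjusted p = 0.0667) on day 3 and −0.11 (adjusted p = 0.292) on day 7, and with median-centred samples the 3 differences were −0.79, −0.83 and −0.58. The call for Dot1l was lost on day 28 without sham replicate 2, sham replicate 3, PBS replicate 2 or PBS replicate 3 (adjusted p = 0.0567 to 0.106). Kmt2c, an enhancer methyltransferase, was downregulated on day 3 by −0.22 (adjusted p = 0.024, median-centred −0.82), a call lost on day 3 without sham replicate 1, sham replicate 3, PBS replicate 1 or PBS replicate 2 (adjusted p = 0.0672 to 0.111), and Setd2, which methylates histone H3 behind RNA polymerase, by −0.14 (adjusted p = 0.00485, median-centred −0.75).

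Demethylases were mostly not called on the authors' scaling, with a few exceptions. Kdm5b, which removes the methyl mark of active promoters, had 1278, 1257 and 1350.3 normalized counts in sham mice, and after TBI with PBS it had 1046, 1091 and 1051 on day 3, 1123, 1184 and 1152 on day 7 and 1097, 1156 and 1201 on day 28. Kdm5b values of 9 of 9 PBS mice lay below the lowest sham value. Kdm5b was downregulated by a log2 difference (SE 0.043) of −0.28 (adjusted p = 8.91e-06) on day 3, −0.17 (adjusted p = 0.002) on day 7 and −0.17 (adjusted p = 0.00275) on day 28, and with median-centred samples the 3 differences were −0.89, −0.90 and −0.51. For Kdm4d, a demethylase of the repressive H3K9 mark, the sham mice gave 31.4, 39.3 and 41.9 normalized counts, and the PBS mice gave 70.0, 49.6 and 49.2 on day 3, 60.0, 59.7 and 39.8 on day 7 and 62.9, 66.5 and 59.5 on day 28. Kdm4d values of PBS mice lay above the highest sham value in 3, 2 and 3 of 3 mice on days 3, 7 and 28. Kdm4d was upregulated by a log2 difference (SE 0.18) of 0.57 (adjusted p = 0.00959) on day 3, 0.49 (adjusted p = 0.0245) on day 7 and 0.75 (adjusted p = 0.00209) on day 28, and with median-centred samples the 3 differences were −0.028, −0.24 and 0.41. A call for Kdm4d was lost on day 3 without sham replicate 1 or PBS replicate 1 (adjusted p = 0.0577 to 0.0711) and on day 7 without sham replicate 1, PBS replicate 1 or PBS replicate 2 (adjusted p = 0.104 to 0.12). Normalized counts of Kdm2b, which binds CpG islands and brings Polycomb complex 1 there, were 259, 258 and 230.2 in sham, 257, 252 and 296 on day 3 of PBS TBI, 298, 309.6 and 278 on day 7 and 254, 258 and 248 on day 28. Kdm2b values of PBS mice lay above the highest sham value in 1, 3 and 0 of 3 mice on days 3, 7 and 28. Kdm2b was upregulated by a log2 difference (SE 0.081) of 0.25 (adjusted p = 0.0121) on day 7, while the difference was 0.11 (adjusted p = 0.26) on day 3 and 0.028 (adjusted p = 0.798) on day 28, and with median-centred samples the 3 differences were −0.50, −0.48 and −0.31. The call for Kdm2b was lost on day 7 without sham replicate 3 or PBS replicate 2 (adjusted p = 0.0551 to 0.0696). Kdm4a, a demethylase of repressive and elongation marks on histone H3, had 418, 446 and 464 normalized counts in sham mice, and after TBI with PBS it had 451, 427 and 477 on day 3, 496, 574 and 515 on day 7 and 429, 474 and 429 on day 28. Kdm4a values of PBS mice lay above the highest sham value in 1, 3 and 1 of 3 mice on days 3, 7 and 28. Kdm4a was upregulated by a log2 difference (SE 0.068) of 0.25 (adjusted p = 0.00275) on day 7, while the difference was 0.029 (adjusted p = 0.719) on day 3 and 0.0042 (adjusted p = 0.959) on day 28, and with median-centred samples the 3 differences were −0.57, −0.48 and −0.34. Kdm4b was downregulated on day 3 by −0.17 (adjusted p = 0.0214, median-centred −0.78), a call lost on day 3 without sham replicate 1, PBS replicate 1 or PBS replicate 2 (adjusted p = 0.0746 to 0.076). Kdm3b, at 21.3 to 62.9 normalized counts, had the lowest log2 difference of the 48 genes on day 3, −0.55, on the authors' scaling. It was not called on that scaling on day 3 (adjusted p = 0.0611), day 7 (−0.35) or day 28 (0.25). After centring its differences on days 3 and 7 were −1.155 and −1.079, the lowest of the 48 genes, and it was downregulated on both days.

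Of the chromatin remodellers, subunits of SWI/SNF were downregulated on the authors' scaling, Smarcd1 on each day and Arid1a and Smarca4 on day 3 only. After centring all 4 remodellers, Smarca5 included, were downregulated on each day. On day 3 Smarcd1 was 0.834 times, Arid1a 0.804 times and Smarca4 0.856 times its sham level on the authors' scaling. For Smarcd1, a subunit that links SWI/SNF to transcription factors, the sham mice gave 789, 829.5 and 838 normalized counts, and the PBS mice gave 689, 684 and 675 on day 3, 731, 723 and 721 on day 7 and 752, 773 and 728 on day 28. Smarcd1 values of 9 of 9 PBS mice lay below the lowest sham value. Smarcd1 was downregulated by a log2 difference (SE 0.044) of −0.26 (adjusted p = 3.46e-05) on day 3, −0.17 (adjusted p = 0.00181) on day 7 and −0.12 (adjusted p = 0.0243) on day 28, and with median-centred samples the 3 differences were −0.86, −0.90 and −0.47. A call for Smarcd1 was lost on day 28 without sham replicate 2, sham replicate 3 or PBS replicate 3 (adjusted p = 0.0739 to 0.0983). Normalized counts of Arid1a, the DNA-binding subunit of the BAF form of SWI/SNF, were 940.3, 921 and 963 in sham, 739, 729.7 and 805 on day 3 of PBS TBI, 844, 957 and 799.7 on day 7 and 883, 859.7 and 934 on day 28. Arid1a values of PBS mice lay below the lowest sham value in 3, 2 and 2 of 3 mice on days 3, 7 and 28. Arid1a was downregulated by a log2 difference (SE 0.080) of −0.31 (adjusted p = 0.00189) on day 3, while the difference was −0.12 (adjusted p = 0.185) on day 7 and −0.078 (adjusted p = 0.435) on day 28, and with median-centred samples the 3 differences were −0.92, −0.85 and −0.42. Smarca4, the ATPase of the complex also called BRG1, was downregulated on day 3 by −0.22 (adjusted p = 0.00133, median-centred −0.83), with differences of −0.12 and −0.10 on days 7 and 28. Smarca4 values of 9 of 9 PBS mice lay below the lowest sham value. Smarca5, the ISWI ATPase, was not called on any day on the authors' scaling and ranged from 2409.6 to 2729 normalized counts over the 21 mice.

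Promoter sequence was compared for the letters of sites known for E2F factors, which drive genes of the cell cycle, because Ezh2 and the SWI/SNF genes Smarcd1 and Arid1a changed in opposite directions on the authors' scaling (all 3 were lower with median-centred samples). RefSeq windows (GRCm38.p6) of 250 bases before to 50 after a start were found for 41 of the 48 genes, 57 windows in all. The letters TTTCCCGC or TTTGGCGC, on either strand, were in windows of 5 of these 41 genes, Arid1a, Dnmt1, Ezh2, Smarcd1 and Suz12, or 8.8% of the 57 windows, beside 1.56% of all 32851 windows. The letters CCAAT, on either strand, were in 36.8% of the 57 windows and 37.41% of all. The stretches from 170 bases before to 30 after the start are shown for the 3 genes, 5′ to 3′ on the gene's strand, with the E2F letters in capitals, for Ezh2 at chr6:47595001-47595200 (minus strand), for Smarcd1 at chr15:99702117-99702316 (plus strand) and for Arid1a at chr4:133753956-133754155 (minus strand).
Ezh2: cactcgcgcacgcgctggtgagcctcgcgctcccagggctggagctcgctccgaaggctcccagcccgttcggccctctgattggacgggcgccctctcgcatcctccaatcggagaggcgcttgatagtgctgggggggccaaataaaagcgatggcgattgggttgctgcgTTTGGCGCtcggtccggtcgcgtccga
Smarcd1: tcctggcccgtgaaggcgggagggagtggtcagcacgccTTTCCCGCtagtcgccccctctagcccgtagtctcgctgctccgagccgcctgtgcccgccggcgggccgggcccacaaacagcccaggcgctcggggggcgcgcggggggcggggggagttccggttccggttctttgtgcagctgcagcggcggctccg
Arid1a: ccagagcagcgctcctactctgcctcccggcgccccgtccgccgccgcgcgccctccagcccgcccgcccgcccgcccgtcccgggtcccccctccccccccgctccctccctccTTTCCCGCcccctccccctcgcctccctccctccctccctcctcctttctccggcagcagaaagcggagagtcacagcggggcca
The capitals begin 4 bases after the start in Ezh2 and 131 and 55 bases before it in Smarcd1 and Arid1a. They are a match of letters only, present in genes that were called higher and in genes that were called lower on the authors' scaling. Dnmt1 and Suz12, which also had such letters, were not called on any day of PBS TBI on that scaling. A further window of Arid1a had none. The windows of the 48 genes and all windows were not matched for base composition, and the difference between their shares was not tested.

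The ratio between relatives within a sample does not depend on the scaling, so it was compared for the 13 pairs of which both genes were measured, over the 9 PBS and 3 sham mice (two-sided exact permutation test, 220 splits, smallest possible p = 0.00455, adjusted over the 13 pairs). The log2 ratio of Hdac1 to Hdac4 was 0.87 higher in PBS TBI, a 1.83-fold difference (exact permutation adjusted p = 0.0197). Relative to the sham mean it was −0.11 to 0.086 in sham mice, 1.03 to 1.24 on day 3, 0.74 to 1.04 on day 7 and 0.25 to 0.69 on day 28, so 9 of 9 PBS mice lay above all sham mice. In CR2-Crry TBI it was 1.00 to 1.15, 0.68 to 0.77 and 0.57 to 0.68 on the 3 days, again above sham in 9 of 9. Hdac1 also rose against Hdac2, by 0.50, and against Hdac6, by 0.59 (exact permutation adjusted p = 0.0197 and 0.0236). Kat2a fell against Kat2b, with a difference in log2 ratio of −0.36, and Setd1b against Setd1a, with −0.30 (exact permutation adjusted p = 0.0197 and 0.0236). Smarca5 rose against Smarca4 by 0.18 and Kdm4b fell against Kdm4a by a log2 ratio of −0.19 (exact permutation adjusted p = 0.0338 for both). The other 6 pairs did not pass, with differences of 0.096 for Ezh2 to Ezh1, 0.18 for Dnmt1 to Dnmt3a, 0.090 for Ep300 to Crebbp, 0.034 for Kdm1b to Kdm1a, 0.16 for Kdm2b to Kdm2a and −0.22 for Kdm3b to Kdm3a. These means over days hid opposite signs in 2 pairs. Ezh2 to Ezh1 had 0.35, 0.19 and −0.25 on days 3, 7 and 28, and Kdm3b to Kdm3a −0.56, −0.36 and 0.25. For Ezh2 to Ezh1, 6 PBS mice lay above all sham mice and 3 below, and so did 6 and 3 CR2-Crry mice. Single days were not tested. With 1 sham mouse left out the smallest possible p is 0.0182, and without sham replicates 1, 2 and 3 the number that still passed was 4, 0 and 0 of the 7. Without sham replicate 1 those lost were Smarca5 to Smarca4, Kdm4b to Kdm4a and Setd1b to Setd1a (exact permutation adjusted p = 0.0591, 0.166 and 0.0591), and Ep300 to Crebbp passed (0.0473). Among the PBS mice, the pair of Smarca5 and Smarca4 was lost without day 3 replicate 2 (exact permutation adjusted p = 0.0563), and that of Kdm4b and Kdm4a without day 3 replicate 2 (0.0525), day 7 replicate 1 (0.0563) or day 7 replicate 3 (0.0563).

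**Figure D4:**
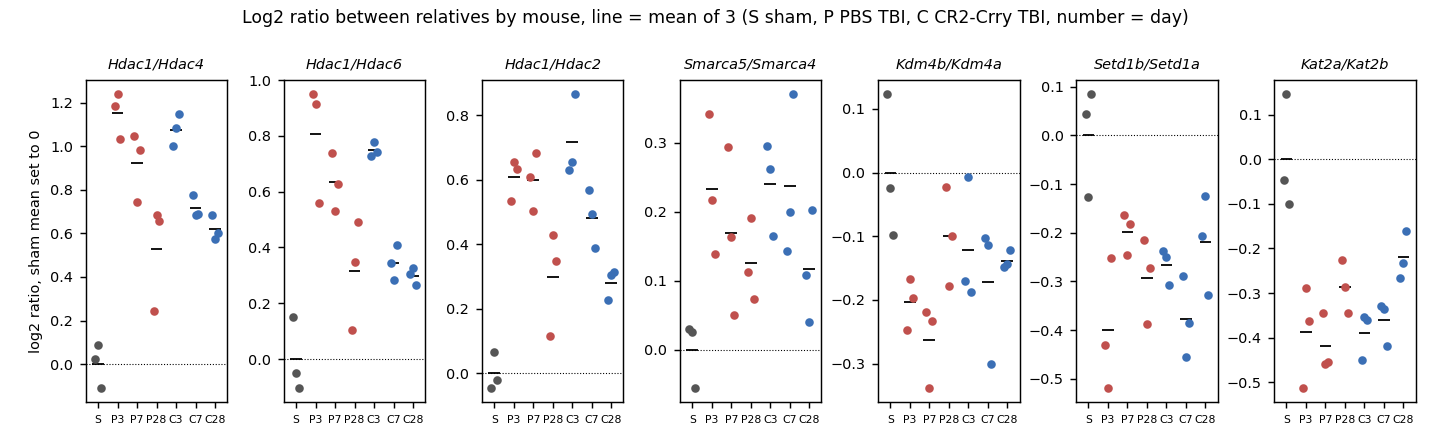
Log2 ratio of the 7 pairs that passed the permutation test, per mouse (points) with the mean of 3 as a line and the sham mean set to 0, each panel with its own axis. The ratio of Hdac1 to Hdac4 is 1.03 to 1.24 on day 3 of PBS TBI and 0.25 to 0.69 on day 28, all above the sham range of −0.11 to 0.086, and ratios within a sample are the same under both scalings.

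The second question was how the levels moved between days in PBS TBI. From day 3 to day 7, 9 of 48 genes rose and 1 fell, beside 18.5% and 6.62% of all tested genes. With median-centred samples 0 rose and 1 fell, beside 8.92% and 14.3%. The gene that fell under both scalings was Hat1, with a log2 difference of −0.23 (−0.36 with median-centred samples, adjusted p = 0.00313). Those that rose on the authors' scaling, with the median-centred difference second, were Kmt2c (0.27 and 0.14), Jarid2 (0.25 and 0.12), Setd1b (0.23 and 0.10), Sin3a (0.23 and 0.10), Kdm4a (0.22 and 0.097), Ash2l (0.19 and 0.065), Crebbp (0.18 and 0.055), Hdac4 (0.18 and 0.053) and Setd2 (0.12 and −0.012). Without replicate 2 of day 7 the 10 calls became 2, and without replicates 1 or 2 of day 3 they became 4 and 6. The call of Kmt2c was lost without day 3 replicate 1, day 3 replicate 2, day 7 replicate 2 or day 7 replicate 3 (adjusted p = 0.0543 to 0.0876), that of Jarid2 without day 3 replicate 3 or day 7 replicate 2 (adjusted p = 0.0593 to 0.0615) and that of Setd1b without day 3 replicate 1, day 3 replicate 2, day 7 replicate 1, day 7 replicate 2 or day 7 replicate 3 (adjusted p = 0.0551 to 0.195). From day 7 to day 28, 1 gene rose and 8 fell, beside 6.08% and 39.1%, and without replicate 2 of day 7 the 9 calls became 4. Ezh1 rose by 0.23 (0.62 with median-centred samples, adjusted p = 0.0327), a call lost without day 7 replicate 1, day 7 replicate 2, day 28 replicate 1, day 28 replicate 2 or day 28 replicate 3 (adjusted p = 0.0589 to 0.101). Those that fell on the authors' scaling had differences above 0 when samples were median-centred: Hdac1 (−0.29 and 0.095), Kdm4a (−0.25 and 0.14), Kat2b (−0.25 and 0.14), Kdm2b (−0.22 and 0.17), Ezh2 (−0.21 and 0.18), Mbd2 (−0.16 and 0.23), Brd2 (−0.14 and 0.25) and Mbd3 (−0.11 and 0.28). With median-centred samples 43 rose and 0 fell, beside 46.8% and 16.9%. Of the markers, 6 of 7 cycling genes were lower at each step (7 and 2 of 7 median-centred, with 1 higher at the second). Microglial markers were higher in 4 and lower in 1 of 9 from day 3 to day 7 and lower in 9 of 9 from day 7 to day 28 (3 and 1, then 8 median-centred). Neuronal markers were called in 0 of 11 at the first step and were higher in 2 and lower in 1 at the second (1 lower, then 11 higher median-centred). The part of these lists in the differences was not tested.

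Between day 3 and day 28, 10 genes rose and 5 fell, beside 13.6% and 31.2% of all tested genes, and without replicate 3 of day 28 the 15 calls became 9. Kdm3b had the highest difference, 0.80 (1.06 with median-centred samples, adjusted p = 0.0148), with 24.7, 24.8 and 28.3 normalized counts on day 3 and 49.7, 49.1 and 37.4 on day 28. The values of Kdm3b did not overlap between the days, and sham mice had 37.7, 38.5 and 37.7, above all 3 mice of day 3 and among those of day 28. Dnmt3b rose by 0.49 (0.75 with median-centred samples, adjusted p = 0.0419), Ezh1 by 0.31 (0.57 with median-centred samples, adjusted p = 0.006) and Hdac4 by 0.28 (0.54 with median-centred samples, adjusted p = 0.00148). The call of Dnmt3b was lost without day 3 replicate 3, day 28 replicate 1 or day 28 replicate 3 (adjusted p = 0.0944 to 0.199) and that of Kdm3b without day 28 replicate 1 (adjusted p = 0.0532). Arid1a, Crebbp, Bmi1, Smarcd1, Setd2 and Kdm5b rose by 0.11 to 0.24 on the authors' scaling and by 0.38 to 0.50 with median-centred samples. The 5 that fell on the authors' scaling, with the median-centred difference second, were Hdac1 (−0.34 and −0.080), Ezh2 (−0.29 and −0.033), Hat1 (−0.20 and 0.058), Kat2b (−0.19 and 0.073) and Mbd2 (−0.16 and 0.098). None of these 5 was called with median-centred samples, where 38 genes rose and 0 fell, beside 40.3% and 17.2%. The summed levels of microglial markers went from 13270.0 to 14267 on day 3 to 7985 to 9174 on day 28 and those of cycling cells from 3454 to 3692 to 1838 to 1884, with 9 of 9 and 7 of 7 lower (6 and 7 median-centred). Those of neuronal markers went from 53454 to 56851 to 59291 to 59365, with 5 of 11 higher and 0 lower (9 and 0 median-centred). The part of these lists in the differences was not tested.

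The third question was whether CR2-Crry changed these genes against PBS after the same injury. On the authors' scaling 0 of 48 genes were called by limma on day 3, day 7 or day 28 or for the mean of the 3 days, beside 0%, 7.43%, 0% and 0% of all tested genes. At an unadjusted p under 0.05, which unchanged genes also pass at that rate, there were 2, 3, 1 and 3 genes. The share of all tested genes under it was not counted. With limma voom on the recovered counts, 0 of 48 were called in each comparison as well. The 95% interval of the difference lay within 1.5-fold in both directions for 47, 46 and 47 of 48 genes on days 3, 7 and 28, the exceptions being Kdm4d on day 3, Dnmt3b and Kdm4d on day 7 and Kdm3b on day 28, all of low level. On day 7, the day on which other tested genes were called, Hdac1 had 449, 419 and 447 normalized counts with PBS and 407, 394 and 371 with CR2-Crry. The log2 difference of Hdac1 was −0.17 (95% interval −0.33 to −0.0038, adjusted p = 0.167, and 0.0012 with median-centred samples). Kdm4a, with 496, 574 and 515 and 494, 458 and 459.7, and Jarid2, with 532, 570.5 and 528 and 509, 492 and 461, had differences of −0.17 and −0.16 (0.0018 and 0.011 median-centred) and were not called either. With Hdac1 they were the 3 genes under an unadjusted p of 0.05 on day 7. On day 3, Hdac4 had 332, 338 and 357 with PBS and 395, 368 and 387 with CR2-Crry, a difference of 0.16 (95% interval 0.032 to 0.30, adjusted p = 0.999, 0.12 median-centred). With median-centred samples, which add 0.17 to each difference on day 7, 5 of 48 genes (10.4%) were called higher with CR2-Crry on that day and 0 lower. Of all tested genes 8.51% were called higher and 3.24% lower. The 5 genes were Dnmt3a (0.24, against 0.073 on the authors' scaling), Hat1 (0.20, against 0.037 on the authors' scaling), Hdac6 (0.29, against 0.12 on the authors' scaling), Kdm3a (0.23, against 0.063 on the authors' scaling) and Smarca5 (0.17, against 0.0021 on the authors' scaling). On days 3 and 28 and for the mean of days, 0 of 48 were called after centring, beside 0%, 0% and 0%. For a difference of the treatment effect between days 0 of 48 genes were called, beside 0 of all tested genes. Under an unadjusted p of 0.05 there were 5, 1 and 2 of the 48 for day 7 against 3, day 28 against 7 and day 28 against 3, again with no share over all genes counted. Microglial markers were lower with CR2-Crry in 3 of 9 on day 7 (0 median-centred) and 0 of 9 on days 3 and 28, and monocyte and macrophage markers in 1 of 4 on day 7 (1 median-centred) and 0 of 4 on days 3 and 28, with medians of −0.28 and −0.64 on the log2 scale on day 7 (−0.11 and −0.48 median-centred).

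**Figure D5:**
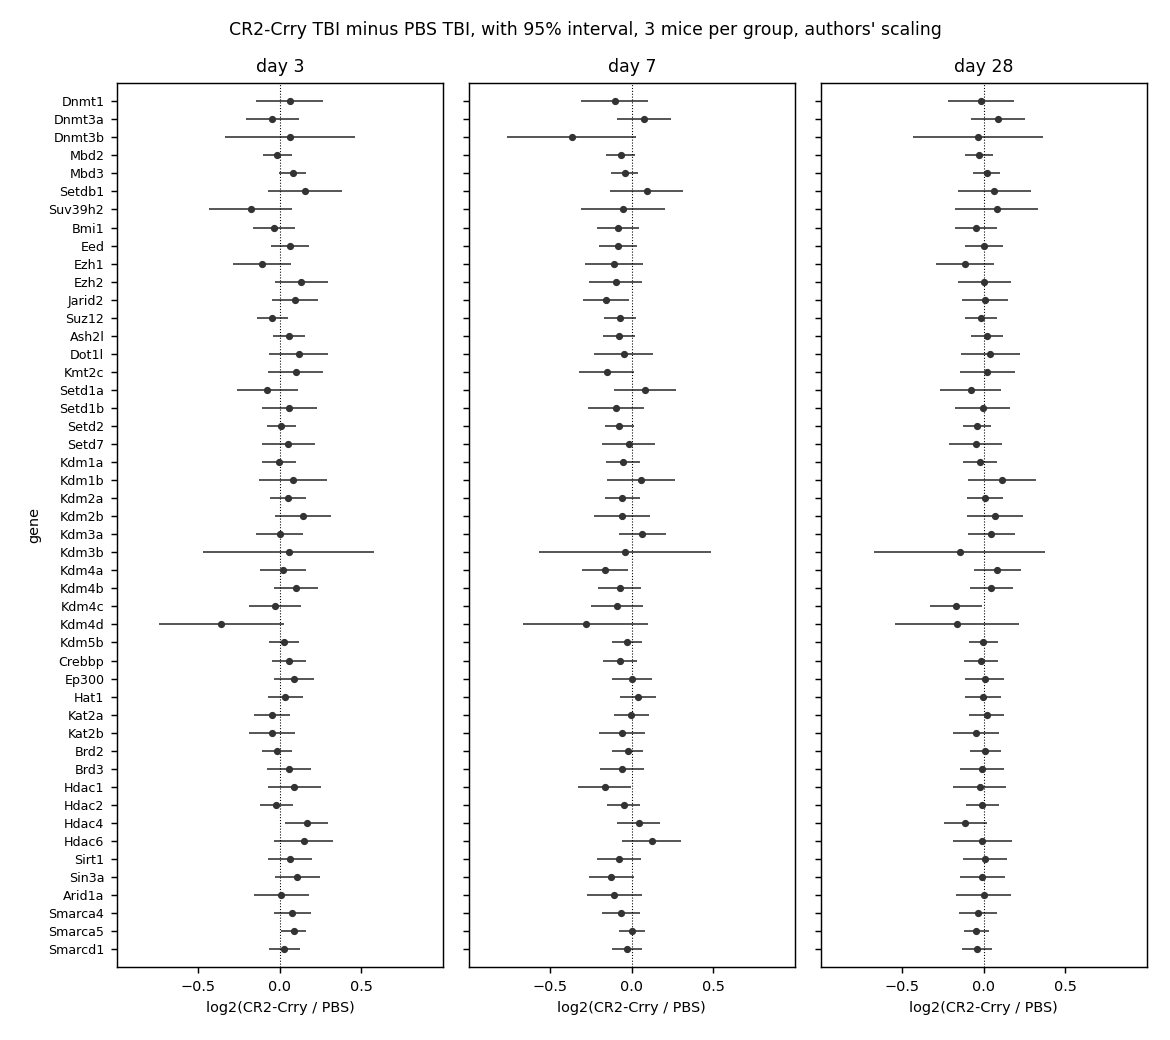
Log2 difference between CR2-Crry TBI and PBS TBI for the 48 genes on days 3, 7 and 28 (points) with the 95% interval from limma as bars, 3 mice per group, on the authors' scaling. No gene passed the adjusted threshold, and the widest intervals belong to Kdm4d, Dnmt3b and Kdm3b, the genes with the lowest counts.

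CR2-Crry TBI was also compared with sham, with the same 3 sham mice as PBS TBI, so the 2 sets of changes are not independent. On days 3, 7 and 28, 9, 6 and 6 of 48 genes were upregulated and 10, 9 and 5 downregulated, beside 53.0%, 48.0% and 44.3% of all tested genes upregulated and 11.9%, 10.3% and 10.3% downregulated. With median-centred samples 0 were upregulated on any day and 47, 45 and 41 downregulated, beside 24.5%, 23.2% and 23.2% and 53.1%, 52.0% and 39.9%. Hdac1 had 471, 464 and 511 normalized counts on day 3, 407, 394 and 371 on day 7 and 352, 352 and 350.3 on day 28. Its log2 differences from sham were 0.77, 0.47 and 0.32, beside 0.68, 0.63 and 0.34 with PBS, and with median-centred samples they were 0.12, −0.095 and −0.014. Hdac4 had 395, 368 and 387, then 399.9, 412 and 386 and 368, 397 and 388, with differences of −0.31, −0.25 and −0.30, beside −0.47, −0.29 and −0.19 with PBS. Hdac1 lay above and Hdac4 below every sham mouse in 9 of 9 CR2-Crry mice on the authors' scaling, and after centring both had differences below 0 except Hdac1 on day 3. Kat2b (0.36, 0.40 and 0.17), Mbd2 (0.30, 0.24 and 0.12) and Mbd3 (0.19, 0.18 and 0.13) were upregulated on all 3 days on the authors' scaling, and their differences were below 0 with median-centred samples. Kdm5b (−0.26, −0.20 and −0.17), Setd7 (−0.19, −0.31 and −0.35), Smarcd1 (−0.23, −0.21 and −0.17) and Smarca4 (−0.15, −0.19 and −0.14) were downregulated on all 3 days. Single samples decided some of these calls. On day 3 that of Setd7 was lost without sham replicate 1, sham replicate 3, CR2-Crry replicate 2 or CR2-Crry replicate 3 (adjusted p = 0.0601 to 0.161) and that of Smarca4 without sham replicate 3, CR2-Crry replicate 1 or CR2-Crry replicate 2 (adjusted p = 0.0643 to 0.0826). On day 28 that of Kat2b was lost without sham replicate 1, sham replicate 2, CR2-Crry replicate 1 or CR2-Crry replicate 2 (adjusted p = 0.0886 to 0.171), that of Mbd2 without sham replicate 2 or CR2-Crry replicate 3 (adjusted p = 0.0608 to 0.0647) and that of Smarca4 without sham replicate 1, sham replicate 2, sham replicate 3, CR2-Crry replicate 1 or CR2-Crry replicate 3 (adjusted p = 0.0625 to 0.153).

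A set of 10 other chromatin and small RNA genes of the panel was looked at beside the 48. In PBS TBI 4, 6 and 4 of 10 were upregulated on days 3, 7 and 28 and 0 were downregulated, on the authors' scaling, beside 51.6%, 57.3% and 44.5% of all tested genes upregulated. With median-centred samples 0, 1 and 1 were upregulated and 5, 5 and 3 downregulated, beside 26.5%, 25.9% and 21.2% and 52.3%, 54.5% and 38.0% of all tested genes. Padi2, which converts arginine in histones to citrulline and is expressed by oligodendrocytes, had log2 differences of 0.54, 0.88 and 0.71 on the 3 days (−0.063, 0.15 and 0.37 with median-centred samples). Tarbp2, a partner of Dicer, had 0.24, 0.33 and 0.19, all called (−0.36, −0.40 and −0.15 median-centred). H2ax, the histone variant marked at DNA breaks, had 1.02 on day 7, and Brca1, a repair gene of dividing cells, 0.92 on day 3 (0.29 and 0.32 median-centred, that of Brca1 not called). Sall1, counted among the 9 microglial markers as well, had 0.67, 0.96 and 0.37, all called (0.065, 0.23 and 0.026 median-centred). Ago4 had 0.26, 0.45 and 0.41, called on days 7 and 28 (−0.34, −0.27 and 0.074 median-centred). Ehmt2, an H3K9 methyltransferase, was called on day 7 only, with 0.16 (−0.57 median-centred), while Hira, Wdr5 and Dicer1 were not called on any day.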

How the data were processed

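The study measured 21 mouse hemisphere samples with the nCounter Neuroinflammation v1 panel. Per the labels and the methods, the authors thresholded the background and scaled the signal to housekeeping genes in nSolver, and they deposited the resulting normalized counts (signal) on a linear scale with 2 decimals. No background floor was visible in these values, as the lowest value of a sample occurred at most 3 times. The lowest of all was 2.14. In each sample at least 99.87% of values were whole multiples of 1 step (0.78618 to 1.25475, tolerance 0.0075). All 21 sample columns were used. Probes with a value over 20 in at least 3 samples were tested (740 of 757), and 703 had 1 gene symbol.

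Log2 values, with no pseudocount, were fitted with limma 3.58.1 (R 4.3.3), 1 mean per group over all 21 samples, with a mean-variance trend and Benjamini-Hochberg adjustment over the tested probes of a contrast. Pair ratios were tested by exact permutation (Python 3.11.15, numpy 2.4.6). The fits were tested on simulated data. The gene families, marker lists, pairs and tests were chosen with earlier results of these data known, and limma voom was added after the data were seen. By rule, values per mouse are given for genes called in 1 direction on at least 2 days of PBS TBI, for the 5 highest and 5 lowest called changes of a day and for genes called for treatment; those of Hat1, Kdm2b, Kdm3b and Jarid2 were added after their values were seen. Replicates share only a number. Alternatives were median-centred samples, other moderation, weights, filters, a pseudocount, a replicate block and leaving out each sample. Separate mice stand behind each sample, so errors cover differences between mice. Promoters were matched by symbol to RefSeq (GRCm38.p6).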

Additional observations from a re-analysis of the deposited data

Results flagged for a closer look

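The change from sham differed between days of PBS TBI by the test of the difference itself for some of the 48 genes. There were 10 between days 3 and 7, 9 between days 7 and 28 and 15 between days 3 and 28. Of all 740 tested genes 186, 334 and 332 differed. With median-centred samples the counts became 1, 43 and 38 of 48, beside 172, 471 and 425 of 740.

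The treatment differences of Hdac4 pointed in opposite directions on days 3 and 28: its 3 CR2-Crry mice lay above all PBS mice on day 3 and below all of them on day 28, with log2 differences of 0.16 and −0.11 (0.12 and −0.10 with median-centred samples). On day 28 it had 435, 411 and 402 normalized counts with PBS and 368, 397 and 388 with CR2-Crry. The difference between the days was −0.28 and did not pass (adjusted p = 0.997 by limma). Mbd3 showed the same kind of pattern between days 3 and 7, with 0.078 and −0.045 (0.035 and 0.12 median-centred, both above 0). Its difference between the days was −0.12 and did not pass either (adjusted p = 0.281). Both genes were picked because their mice separated in opposite directions on different days. The share of all tested genes that do so was not counted. Dosing on day 28 differed from that on day 3, so day and dosing cannot be told apart for Hdac4.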

How the results depend on the processing

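Centring each sample on its median was the choice that changed most. It took the genes called against sham from 20, 15 and 14 of 48 to 46, 45 and 41 in PBS TBI on days 3, 7 and 28, and from 19, 15 and 11 to 47, 45 and 41 in CR2-Crry TBI. CR2-Crry against PBS on day 7 went from 0 to 5, and PBS TBI between days from 10 to 1 (day 7 against 3), 9 to 43 (day 28 against 7) and 15 to 38 (day 28 against 3). Of 90 named changes 39 reversed. On day 3 of PBS TBI the centred log2 differences were −0.48 for Brd2, −0.30 for Ezh2, −0.34 for Hat1, −0.20 for Kat2b, −0.028 for Kdm4d, −0.29 for Mbd2 and −0.49 for Mbd3. On day 7 they were −0.49 for Ash2l, −0.52 for Brd2, −0.51 for Ezh2, −0.096 for Hdac1, −0.26 for Kat2b, −0.48 for Kdm2b, −0.48 for Kdm4a, −0.24 for Kdm4d, −0.42 for Mbd2, −0.51 for Mbd3 and −0.55 for Sin3a. On day 28 they were −0.18 for Ash2l, −0.080 for Ezh1, −0.0011 for Hdac1, −0.12 for Kat2b, −0.19 for Mbd2 and −0.23 for Mbd3. In CR2-Crry TBI they were −0.29 for Kat2b, −0.35 for Mbd2 and −0.45 for Mbd3 on day 3, −0.095 for Hdac1, −0.16 for Kat2b, −0.32 for Mbd2 and −0.38 for Mbd3 on day 7 and −0.014 for Hdac1, −0.16 for Kat2b, −0.21 for Mbd2 and −0.20 for Mbd3 on day 28. Between days they were 0.095 for Hdac1, 0.14 for Kdm4a and 0.14 for Kat2b for day 28 against 7 and 0.058 for Hat1 for day 28 against 3. The reversals follow from the shift that centring adds to every gene, and which scaling is nearer to the tissue was not tested. No other alternative reversed a named change.

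A test without moderation called 13 and 4 genes in PBS TBI on days 3 and 28, 8 and 6 in CR2-Crry TBI on days 7 and 28, and 0, 0 and 4 for day 7 against 3, day 28 against 7 and day 28 against 3. It could not be run for the mean of days or for differences of the treatment effect between days. Fitting only the groups compared gave 4 for day 7 against 3 and 9 for day 28 against 3. Adjusting only over probes with an unadjusted p under 0.05, which calls each of them, gave 2, 3 and 1 for CR2-Crry against PBS on days 3, 7 and 28, 3 for the mean of days, 17 for day 7 against 3, and 5, 1 and 2 for the treatment effect between days. Leaving out each sample in turn gave 8 to 12 calls in PBS TBI on day 28, 2 to 12 for day 7 against 3, 4 to 8 for day 28 against 7, 9 to 14 for day 28 against 3 and 0 to 9 of 13 pair ratios, and 59 of the 90 named changes held without every single sample. With the replicate number as a block, 20, 15 and 13 genes were called in PBS TBI, 17, 14 and 10 in CR2-Crry TBI, 8, 8 and 13 between days and 0 for treatment. Of 63 correlations between same-numbered samples 11 were over 0.1 and no pair of groups had all 3 over 0.1, so the samples share only a number. No trend in the moderation, sample weights, a pseudocount of 20, both filters and limma voom kept every count within 1.5 times. The planned edgeR test on recovered counts was not run. With 3 mice per group, small changes are at the limit of what these data can call, and least precise for Kdm4d, Dnmt3b and Kdm3b, which have few counts.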
